A study of Mus musculus with 8 samples.

Results

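The 40 genes described here encode Wnt ligands, their receptors and the proteins of the non-canonical arm of Wnt signalling, in whisker follicles of ApcMin/+ mice given vehicle or E7386. They are 14 Wnt ligands, 2 proteins that lipidate and export them, 9 Frizzled receptors, 3 LRP co-receptors, 3 Dishevelled adaptors, 3 tyrosine kinase-like receptors, 4 planar polarity proteins and 2 formins. The list was given by name, with no measured value in its rule, but it was drawn up with earlier results of these data known. All 40 genes had a probe on the array, of 20887 genes with a symbol in all. Where a gene had several probes, the brightest on average over the 8 arrays was taken.

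Total RNA of whisker follicles from female mice was hybridised to 1-colour Agilent arrays, with 4 samples per group. All mice, vehicle controls included, carried the ApcMin allele, a germline mutation that truncates the APC protein, on 1 of their Apc copies. The treated mice received E7386, an orally active modulator of the interaction between beta-catenin and its coactivator CBP, by mouth at 30 mg/kg and 2 doses a day. Dosing began at 8 weeks of age and ran for 4 cycles of 5 dosing days and 2 days of rest, and follicles were taken 6 h after the last dose. Whether each sample came from its own mouse was not given in the sources used here, so the p-values cover just the variation among these samples, which may be technical.

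Wnt ligands are secreted lipoproteins. Porcn attaches the lipid, Wls carries the ligand to the cell surface, and Frizzled receptors bind it. With an LRP co-receptor the signal runs through Dishevelled to beta-catenin (the canonical arm). With Ror, Ryk or the planar polarity proteins it shapes the cytoskeleton and cell orientation (the non-canonical arm). In hair follicles the canonical arm is known for the start of growth and for the differentiation of the hair shaft, and planar polarity genes are known for aligning follicles across the skin.

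Values are log2 signals relative to the 75th percentile of the same array, so 0 is a signal at that percentile and a difference of 1 is a doubling. A probe was counted as detected on an array where the scanner program marked it as well above background. Probes differ in brightness for the same amount of RNA, so levels are compared between arrays and not between genes. Between 62.2% and 64.7% of mouse spots were detected with vehicle and 61.5% to 61.9% with E7386, so the groups did not overlap, and arrays of a group correlated at 0.985 to 0.994. All 8 arrays lay on 1 slide with vehicle in row 1 and E7386 in row 2, so a row effect and a treatment effect cannot be told apart. The follicle label was checked against markers. Of 12 measured markers of follicle epithelium 11 were detected on all 8 arrays, the other being Shh on 7, and 9 of 10 dermal papilla markers were, the other being Corin on 5. Skeletal muscle markers were present on every array and varied widely, with a mean over 9 genes of 1.76 on vehicle replicate 1, 2.00 and 2.74 on E7386 replicates 1 and 2, and 4.00 to 4.80 on the other arrays.

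Across the list the treatment went with 1 change past the threshold. Daam2, a formin of the family that links Dishevelled to the actin cytoskeleton, was lower with E7386, and no member rose (limma, Benjamini-Hochberg adjusted p under 0.05 over all 25353 genes tested). The same threshold called 1.13% of all genes in either direction and 0.351% as lower. Of these calls over all genes 198 were rises and 89 falls, a share of rises of 69.0%, against 136 and 108 (55.7%) with the array median as the scale.

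The sequence upstream of Daam2 is shown because Daam2 is the member that was called. The 250 bases before its first RefSeq start site (GRCm38.p6, chr17:49564338-49564587, minus strand) are written 5′ to 3′, with a match to the cAMP response element in capitals.
Daam2: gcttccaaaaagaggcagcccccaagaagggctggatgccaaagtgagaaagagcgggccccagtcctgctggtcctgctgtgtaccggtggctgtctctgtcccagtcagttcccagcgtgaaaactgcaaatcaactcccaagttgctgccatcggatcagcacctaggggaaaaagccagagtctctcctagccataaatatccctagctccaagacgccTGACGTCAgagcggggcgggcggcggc
The element searched was TGACGTCA, which reads the same on both strands. It was picked after this sequence had been seen. It lies 27 bases upstream of that start site and 54 bases upstream in the other RefSeq window of the gene, which overlaps this one. Windows of 300 bases, 250 before and 50 after a start site, hold this element in 1.79% of 32851 cases. Among the 27 members with a window, Daam2 and Dvl1 have it.

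A second search looked for the TCF/LEF motif CTTTGAT on either strand, the element through which beta-catenin and its DNA-binding partners act on canonical targets. It occurs in 3.73% of all windows and in those of 2 of the 27 members, Wnt5b and Wnt11. The runs below give each match in capitals with 20 bases on each side, from chr6:119449431-119449477 on the minus strand for Wnt5b and chr7:98835041-98835087 on the plus strand for Wnt11, where the motif lies on the opposite strand.
Wnt5b: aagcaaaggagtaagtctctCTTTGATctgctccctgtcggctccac
Wnt11: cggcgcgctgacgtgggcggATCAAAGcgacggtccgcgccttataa
The matches start 71 and 51 bases upstream of the start sites. Neither gene changed past the threshold, with -0.085 for Wnt5b (SE 0.10, limma adjusted p = 0.75) and -0.039 for Wnt11 (SE 0.083, adjusted p = 0.881). A match of letters is a description and does not show that a factor binds there.

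Most of the list was detected in the follicle samples. All measured markers of skeletal muscle, endothelium, Schwann cells, melanocytes, leukocytes and sebaceous gland were also detected on all 8 arrays. Detection therefore does not tell which cells expressed a gene. Of the 40 members 35 were detected on all 8 arrays, and 37 reached detection on 3 or more arrays of a group and so were tested. The 3 that were not tested are ligands. Wnt2 and Wnt7a were not well above background on any array, with signals of -8.00 to -6.88 and -7.38 to -5.91, and Wnt3a was detected on vehicle replicate 1 alone. The dimmest signals well above background were -5.80 to -5.21 on the 8 arrays. All 9 Frizzled genes, all 3 LRP genes, all 3 Dishevelled genes, Porcn and Wls were detected on every array. Ror1 was detected on 3 arrays of each group, and Daam2 on 7 arrays, its remaining spot having been marked by the scanner program as unevenly lit.

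**Figure D1:**
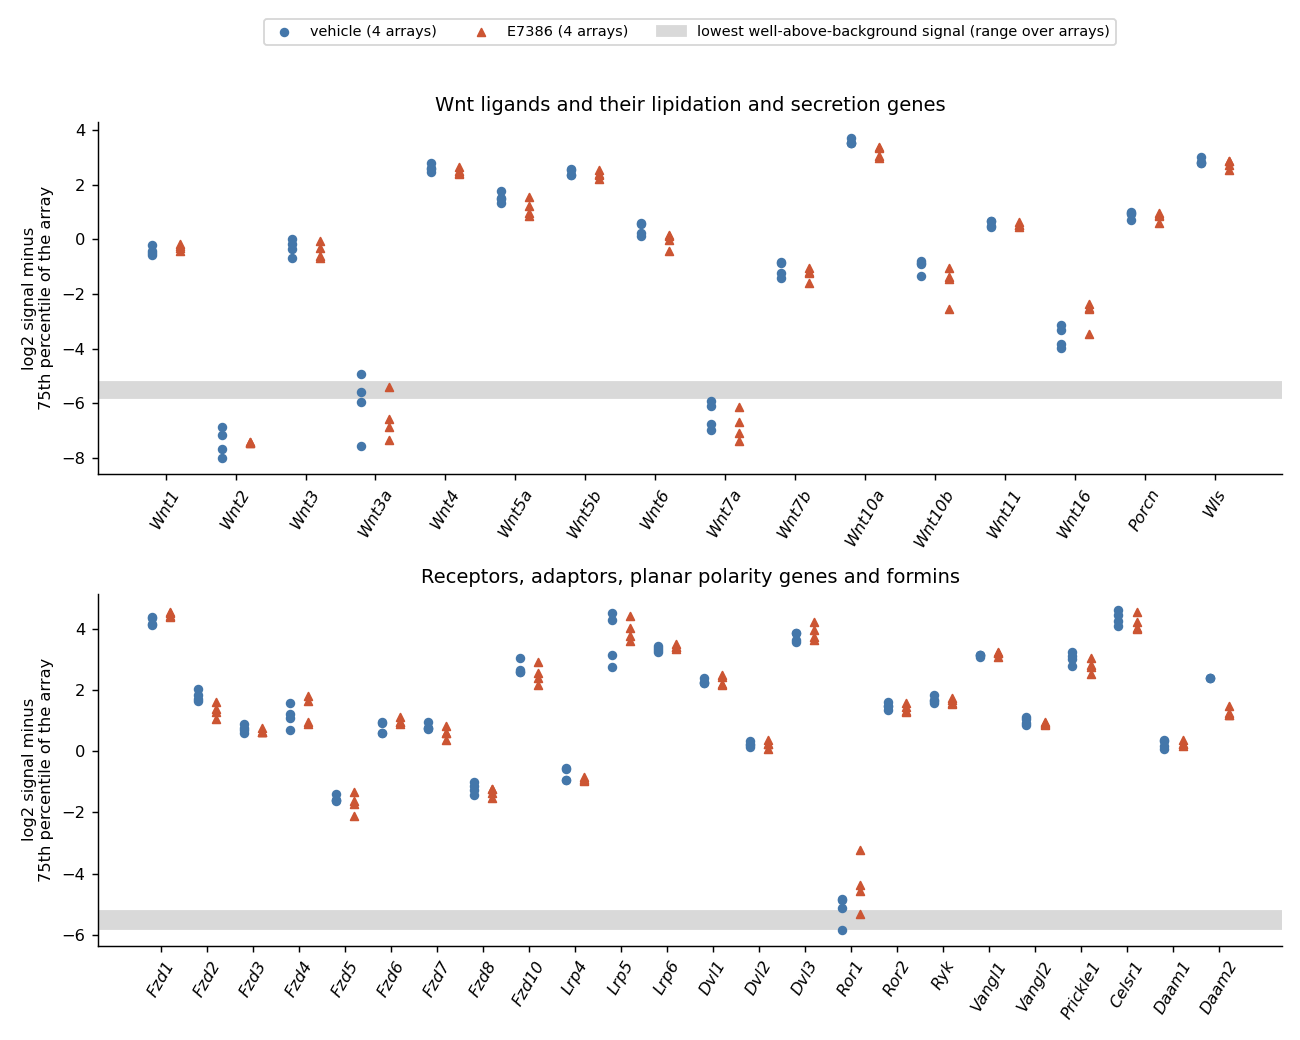
Signal of all 40 members on each array (log2, relative to the 75th percentile of that array), with vehicle as circles and E7386 as triangles, 4 arrays each. The grey band spans the dimmest signals well above background, -5.80 to -5.21, and Wnt2 and Wnt7a lie below it. Heights of different genes are not comparable, because probes differ in brightness.

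Among the ligands, 0 of 11 tested rose or fell past the threshold. Means were lower with E7386 for 9 and higher for 2, with a median log2 change of -0.12, against 0.017 over all genes tested. The counts of 9 and 2 were the same with quantile normalisation, array medians, the values processed by the authors and normexp background correction. At an unadjusted p under 0.05 there were 3 ligands, Wnt10a and Wnt6 lower and Wnt16 higher, where the share over all genes tested was 15.0%.

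Wnt10a, a ligand of the hair and tooth epithelium, gave 3.70, 3.54, 3.53 and 3.51 with vehicle and 3.33, 3.37, 3.04 and 2.96 with E7386. Every E7386 array was below every vehicle array. The change was -0.39 (SE 0.11, 95% interval -0.65 to -0.13) and did not pass over all genes (limma adjusted p = 0.159). It passed in 1 of 24 other settings, with the mean muscle signal as a covariate, a setting chosen after seeing the data (-0.41, adjusted p = 0.0365).

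Wnt6, which is close to Wnt10a on the chromosome and like it an epithelial ligand, gave 0.24, 0.12, 0.59 and 0.56 with vehicle and 0.12, 0.17, -0.01 and -0.44 with E7386. The groups overlapped, and the low value of E7386 replicate 4 stood below the other 7. The change was -0.42 (SE 0.17, limma adjusted p = 0.295). Wnt10b, a canonical ligand of the hair placode and matrix, was also lowest on that array. It gave -0.85, -1.36, -0.92 and -0.79 with vehicle and -1.38, -1.05, -1.44 and -2.56 with E7386. Its change was -0.63 with a wide interval of -1.34 to 0.083 (limma adjusted p = 0.392). The same array had the lowest values of the follicle markers Shh, a hair matrix morphogen at -6.72 and not well above background there, and Hhip, a hedgehog-binding protein of the dermal papilla list, at -1.67. Sox2 and Vcan of that list were also lowest there, at -2.28 and 0.54. Other markers of these lists had their highest value on that array. They were Krt31, Krt71 and Foxn1 of follicle epithelium (8.51, 9.41 and 2.28) and Prom1, Bmp4 and Crabp1 of dermal papilla (0.34, 3.77 and 0.14). The part of these markers in the ligand values was not tested. In whole follicles, fewer cells of a type and less RNA per cell cannot be told apart, here and in all results that follow.

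Wnt16, a ligand known from bone and epidermis, had the largest positive change among the 11 tested ligands. It gave -3.13, -3.31, -3.83 and -3.97 with vehicle and -3.48, -2.52, -2.53 and -2.37 with E7386. E7386 replicates 2, 3 and 4 lay above all vehicle arrays, while replicate 1 lay among them. The change was 0.84 (SE 0.29, interval 0.18 to 1.50) and did not pass (limma adjusted p = 0.23). Its second probe gave 0.89 (SE 0.50). Replicate 1 of E7386 is 1 of the 3 arrays with low muscle signal. The others were not low for Wnt16, vehicle replicate 1 being the highest vehicle array and E7386 replicate 2 lying above all vehicle arrays. Without these 3 the change was 1.25 (limma adjusted p = 0.141). With the mean muscle signal as a covariate it was 0.84 (SE 0.31, adjusted p = 0.197). Both settings were chosen after seeing the data. With normexp background correction on median signals the change was 0.47 (SE 0.14, adjusted p = 0.151).

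Wnt5a, the ligand most closely tied to the non-canonical arm and expressed by dermal papilla cells, gave 1.76, 1.53, 1.33 and 1.48 with vehicle and 1.56, 1.24, 0.96 and 0.85 with E7386. In both groups the arrays with low muscle signal were the higher ones for Wnt5a. The change was -0.37 (SE 0.17, limma adjusted p = 0.352), and -0.41 (SE 0.086, adjusted p = 0.0657) when the mean muscle signal was a covariate, a setting chosen after seeing the data. The mean of the 10 dermal papilla markers was -0.76, -0.80, -0.80 and -0.73 with vehicle and -0.80, -1.15, -1.08 and -1.13 with E7386, so E7386 replicates 2 to 4 were below all vehicle arrays and replicate 1 was not. The markers did not all move together. Corin had the largest change of this list, -1.35 (SE 0.60). Its signal was -3.75 on E7386 replicate 1 but -6.43, -6.01 and -6.27 on replicates 2 to 4, dimmer than any detected spot there. Prom1 was higher with E7386 with no overlap (0.47, SE 0.096, limma adjusted p = 0.067), and Bmp4 was higher too (0.26, SE 0.11). The other markers of the list had lower means. None of these markers passed the threshold, and their part in the Wnt5a values was not tested. Its relative Wnt5b was at 2.45 ± 0.12 (SD, n = 4) with vehicle and 2.36 ± 0.14 with E7386.

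The remaining ligands overlapped between groups on their brightest probes. Wnt4, made in epidermis and matrix, was at 2.61 ± 0.13 (SD, n = 4) with vehicle and 2.50 ± 0.11 with E7386. On its second, dimmer probe the groups did not overlap, from -0.35 to -0.14 with vehicle and from -0.53 to -0.36 with E7386. The change on that probe was -0.20 (SE 0.079, limma adjusted p = 0.294). Wnt3, a canonical ligand of the matrix, ran from -0.70 to 0.01 with vehicle and from -0.69 to -0.06 with E7386. Wnt7b, an epithelial ligand, ran from -1.43 to -0.82 and from -1.59 to -1.06. Wnt11, a non-canonical ligand, was the steadiest of the ligands over the 8 arrays, from 0.44 to 0.67 with vehicle and 0.44 to 0.63 with E7386. Wnt1, best known from the midbrain and neural crest, ran from -0.57 to -0.22 and from -0.45 to -0.18, with the other higher mean among the ligands (0.12, SE 0.099, limma adjusted p = 0.612). The second Wnt1 probe did not follow the first. It gave -1.62 and -1.76 on vehicle replicates 1 and 2 against -3.52 and -3.56 on replicates 3 and 4, so Wnt1 is uncertain. Porcn and Wls, on which secretion of the ligands depends, changed by -0.062 (SE 0.10) and -0.10 (SE 0.10).

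Of the 9 Frizzled genes none passed, 6 had lower and 3 higher means in each of the 5 scalings, and the median change was -0.12. Fzd2, a receptor used in both arms, gave 1.69, 1.64, 2.04 and 1.83 with vehicle and 1.27, 1.61, 1.39 and 1.05 with E7386. The groups did not overlap, though E7386 replicate 2 lay just under vehicle replicate 2. The change was -0.47 (SE 0.14, interval -0.79 to -0.15, limma adjusted p = 0.172). A second, dimmer probe of Fzd2 gave -1.51, -1.57, -1.17 and -1.23 with vehicle and -2.19, -1.78, -2.27 and -2.42 with E7386. It moved further, by -0.80 (SE 0.16, adjusted p = 0.0672), again with no overlap and again short of the threshold. None of 25 other settings called Fzd2.

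Fzd1 moved the other way. It gave 4.38, 4.13, 4.34 and 4.13 with vehicle and 4.55, 4.51, 4.39 and 4.41 with E7386, a change of 0.22 (SE 0.088, limma adjusted p = 0.305). The E7386 arrays were all above the vehicle arrays, with E7386 replicate 3 just over vehicle replicate 1. Fzd6, a receptor that orients hair follicles through planar polarity, gave 0.96, 0.93, 0.60 and 0.60 with vehicle and 0.95, 1.10, 0.88 and 0.94 with E7386. Vehicle replicates 3 and 4 were the low ones, and the change was 0.20 (SE 0.11, limma adjusted p = 0.446). Fzd3, which acts with Fzd6 in hair orientation, differed by -0.071 (SE 0.085).

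Fzd7, close in sequence to Fzd1 and Fzd2, gave 0.74, 0.76, 0.94 and 0.75 with vehicle and 0.59, 0.81, 0.58 and 0.37 with E7386. Its change was -0.21 (SE 0.11, limma adjusted p = 0.4), and its second probe gave -0.30. Fzd10, a receptor of the follicle epithelium, gave 3.03, 2.65, 2.59 and 2.58 with vehicle and 2.91, 2.55, 2.39 and 2.15 with E7386, with a change of -0.21 (SE 0.18). For both genes the groups overlapped on the brightest probe. On the second Fzd7 probe they did not, with E7386 replicate 2 (-2.16) just under vehicle replicate 1 (-2.15). That probe did not pass either (limma adjusted p = 0.252). Fzd5 and Fzd8, canonical receptors, changed by -0.15 (SE 0.15) and -0.12 (SE 0.12), and the second Fzd5 probe gave -0.012.

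**Figure D2:**
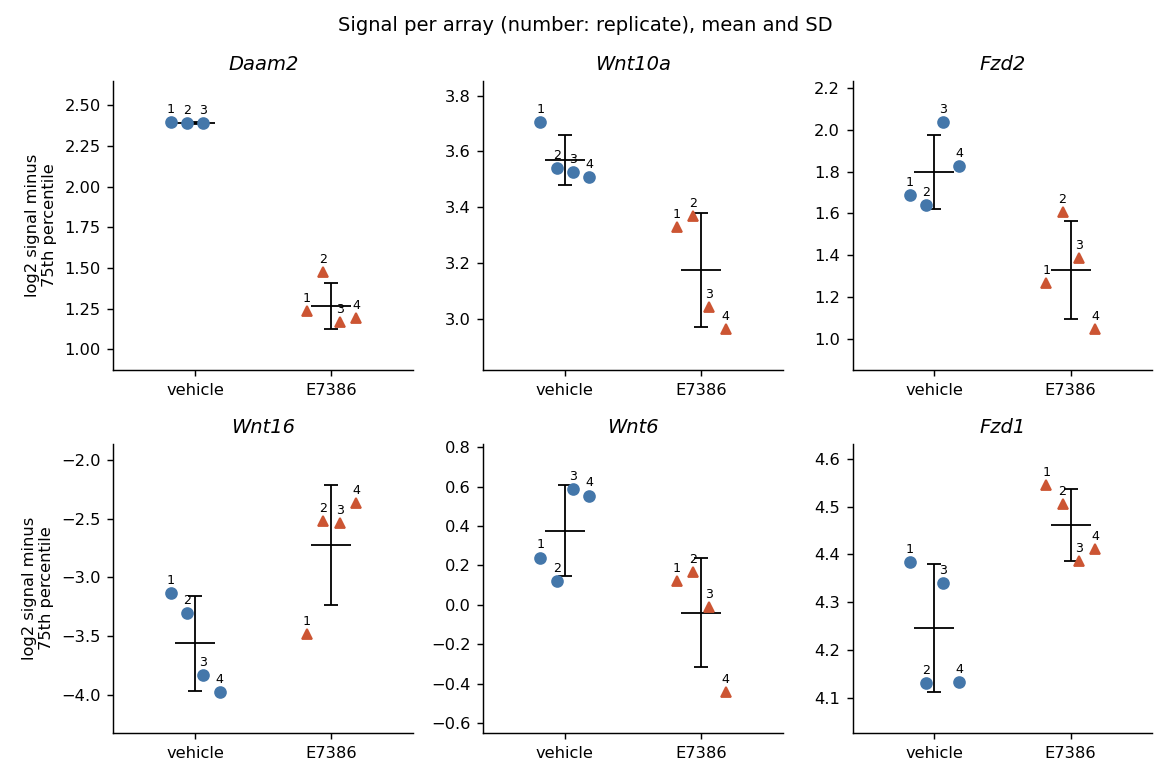
Signal per array (log2, relative to the 75th percentile of that array) of the 6 members with an unadjusted p under 0.05, with the replicate number at each point, and the mean and SD of each group as black bars. The groups do not overlap for Daam2, Wnt10a, Fzd2 and Fzd1. They overlap for Wnt16, through E7386 replicate 1, and for Wnt6. Daam2 has 3 vehicle values.

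Fzd4 and Lrp5 varied more between arrays of a group than between groups. Fzd4, the receptor for norrin in vessels and also known from muscle, gave 0.69, 1.08, 1.21 and 1.57 with vehicle and 0.90, 0.94, 1.64 and 1.80 with E7386. The 8 arrays had the same order for Fzd4 and for the mean muscle signal, which was 1.76, 4.00, 4.53 and 4.70 with vehicle and 2.00, 2.74, 4.71 and 4.80 with E7386. The change was 0.18 (SE 0.26), and 0.23 (SE 0.11, limma adjusted p = 0.279) with that mean as a covariate.

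Lrp5, a co-receptor of the canonical arm, gave 4.29, 4.51, 3.13 and 2.75 with vehicle and 4.01, 3.75, 3.58 and 4.41 with E7386. Vehicle replicates 3 and 4 were the lowest arrays, and the same arrays were lowest for the mean of Foxn1, Hoxc13, Msx2 and Krt31, genes of hair shaft differentiation. That mean was 4.25, 4.30, 3.20 and 3.52 with vehicle and 4.16, 3.87, 3.76 and 4.27 with E7386. The change of Lrp5 was 0.27 (SE 0.41, limma adjusted p = 0.812), and -0.019 (SE 0.19) with this mean as a covariate. Both covariates were chosen after seeing the data, and the part of muscle or hair shaft cells in these values was not tested. The partner co-receptor Lrp6 was steadier, at 3.33 ± 0.075 (SD, n = 4) with vehicle and 3.41 ± 0.070 with E7386. Lrp4, which binds sclerostin and related antagonists, changed by -0.16 (SE 0.12).

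**Figure D3:**
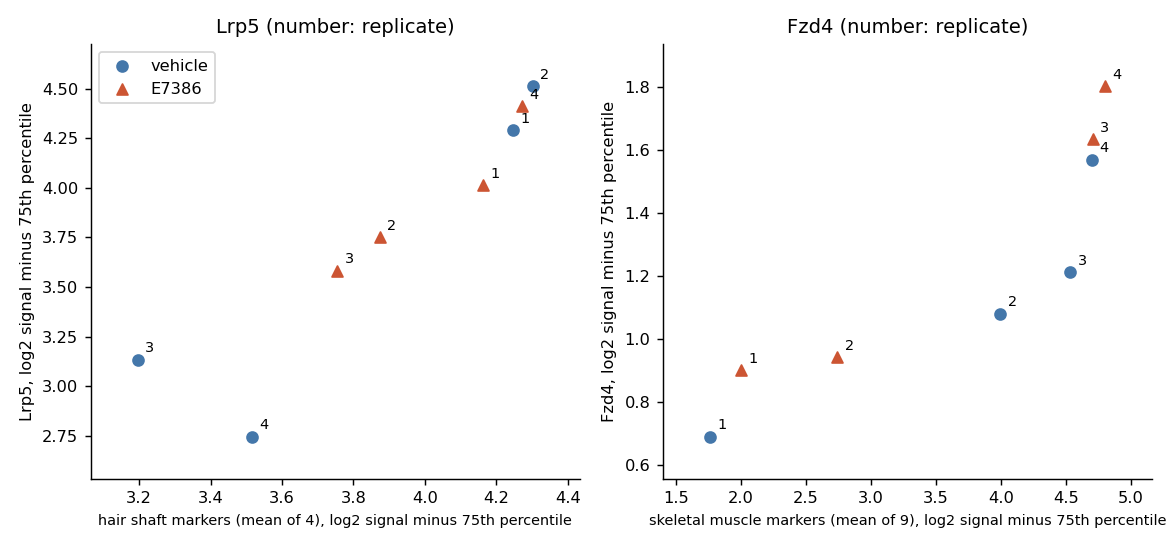
Signal of Lrp5 against the mean of 4 hair shaft genes (left) and of Fzd4 against the mean of 9 skeletal muscle genes (right), 1 point per array with its replicate number, all as log2 relative to the 75th percentile. Vehicle replicates 3 and 4 are lowest on both axes at left, and vehicle replicate 1 is lowest on both axes at right. The points are 8 arrays that share these tissue differences, and no test was made.

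The Dishevelled adaptors, which pass the signal on in both arms, had small changes. The change of Dvl1 was 0.036 (SE 0.10), that of Dvl2 -0.0057 (SE 0.083, interval -0.20 to 0.19) and that of Dvl3 0.16 (SE 0.14). None passed the threshold (limma adjusted p = 0.91, 0.985 and 0.655).

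The receptors and polarity proteins of the non-canonical arm gave no call either. Ror2, a Wnt5a receptor, was at 1.47 ± 0.10 (SD, n = 4) with vehicle and 1.40 ± 0.14 with E7386. Ryk, a pseudokinase receptor, was at 1.69 ± 0.11 and 1.63 ± 0.098. Ror1, a relative of Ror2, lay near background, at -4.82, -5.11, -4.86 and -5.82 with vehicle and -3.24, -4.38, -4.55 and -5.30 with E7386. E7386 replicate 1 stood above the other arrays, and the change of 0.79 had a wide error (SE 0.42, limma adjusted p = 0.43).

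Of the planar polarity genes, Prickle1, a cytoplasmic partner of the Vangl proteins, gave 3.22, 3.11, 2.79 and 3.00 with vehicle and 3.04, 2.74, 2.81 and 2.53 with E7386. The groups overlapped, with a change of -0.25 (SE 0.13, limma adjusted p = 0.428). Celsr1, the cadherin that aligns hair follicles, changed by -0.15 (SE 0.16). Vangl1 and Vangl2, membrane proteins of the polarity complex, changed by 0.056 (SE 0.068) and -0.078 (SE 0.084). The second Vangl2 probe gave -0.21 (SE 0.082, limma adjusted p = 0.29). On that probe the groups did not overlap, from 0.82 to 0.98 with vehicle and from 0.54 to 0.77 with E7386. Vangl1 was the member with the narrowest span over the 8 arrays, from 3.06 to 3.24, and its second probe gave -0.029, the opposite sign. The mean of Vangl1 also turned lower when arrays were scaled by their median.

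Of the 2 formins 1 was called. Daam2 gave 2.40, 2.39 and 2.39 on vehicle replicates 1 to 3 and 1.24, 1.48, 1.17 and 1.19 with E7386. The vehicle arrays were nearly equal and all E7386 arrays lay below them. The change was -1.12 (SE 0.097, interval -1.35 to -0.90), which is 2.18-fold lower (limma adjusted p = 0.00452, 3 vehicle against 4 E7386 arrays). Daam1, its paralogue, gave 0.33, 0.08, 0.16 and 0.35 with vehicle and 0.37, 0.22, 0.15 and 0.23 with E7386, a change of 0.015 (SE 0.091, interval -0.20 to 0.23). The difference between the paralogues' changes was not tested.

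On vehicle replicate 4 the Daam2 spot carried the mark for uneven signal and was left out. Its signal was 8.27, far above the other vehicle values. With that spot kept the change was -2.59 (SE 1.27, adjusted p = 0.39), and the authors' values, which include it, gave -2.63 (adjusted p = 0.383). Daam2 has a single probe, so no second probe bears on it. Each of the 7 arrays with a Daam2 value was left out in turn, and the call held, with changes of -1.19 to -1.09 and adjusted p from 0.00449 to 0.0312. It was lost with the replicate number as a block, a planned setting (-1.10, limma adjusted p = 0.0821). It was also lost without the 3 arrays of low muscle signal, a setting chosen after seeing the data (-1.21, adjusted p = 0.0731).

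**Figure D4:**
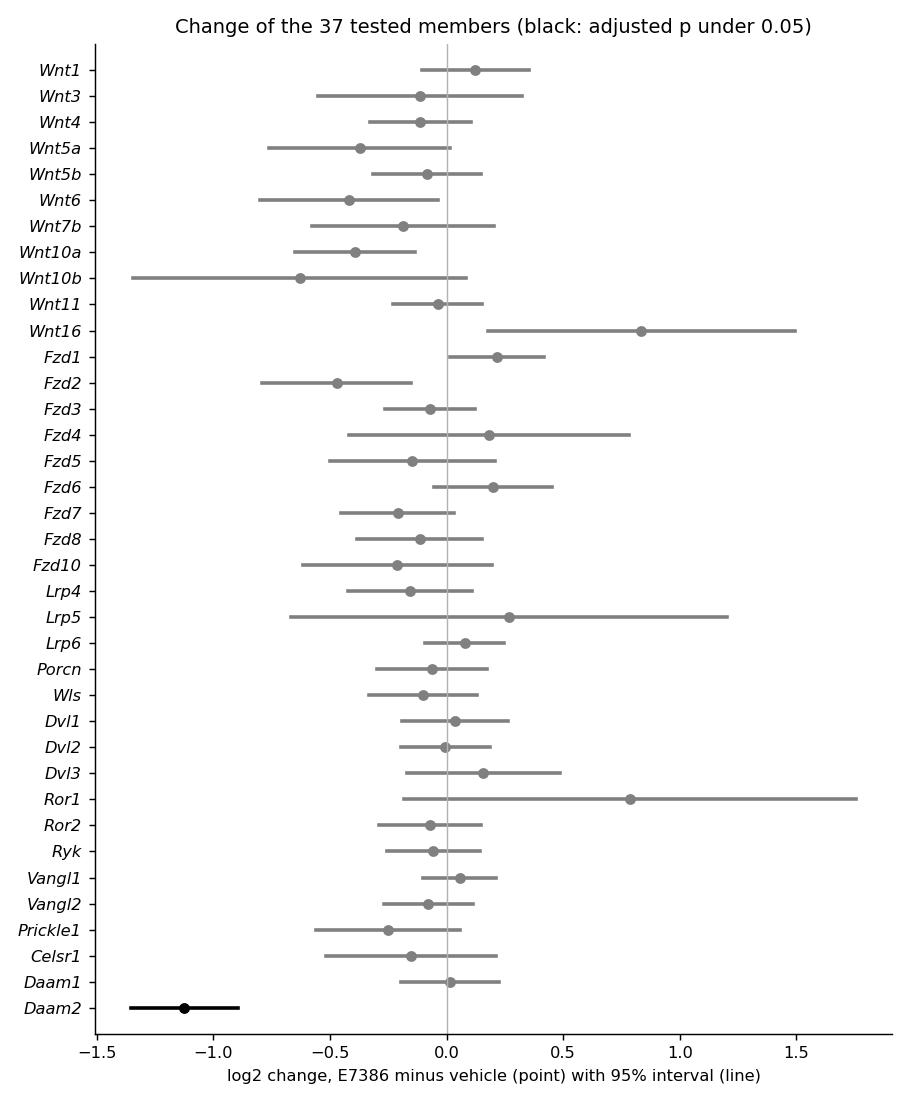
Log2 change, E7386 minus vehicle, of the 37 tested members with its 95% interval, in the order ligands, receptors, secretion genes, adaptors and non-canonical genes. Daam2, in black, is the one with an adjusted p under 0.05. The intervals of Wnt6, Wnt10a, Wnt16, Fzd1 and Fzd2 leave out 0 before adjustment over all genes.

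Over all 37 tested members 25 means were lower with E7386 and 12 higher, 67.6% lower, against 46.2% over all genes tested. The median change was -0.078 against 0.017 over all genes. Across the 5 scalings between 24 and 28 members had lower means, while the median over all genes moved between -0.054 and 0.046. The share of lower means over all genes moved too, to 53.1% with quantile normalisation, 61.2% with array medians and 38.7% with normexp. At an unadjusted p under 0.05 there were 6 members, where all genes had 15.0%. Of these 4 were lower and 2 higher, beside 7.13% and 7.88% of all genes. On the brightest probes the groups did not overlap for 4 members, beside 10.4% of all genes. These 2 counts of members were near the shares of all genes.

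The size of change that these arrays leave room for can be read from the intervals. For 32 of the 37 members the 95% interval lay within a log2 change of 1 in either direction, and for 21 within 0.5. Changes under 0.25 in size were found for 27 members. The number of arrays limits this precision, and a member short of the threshold is not shown to be unchanged.

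A second probe was available for 9 members and agreed in sign with the first for 8. Fzd2 and Fzd7 were lower and Wnt16 was higher on both, none of them past the threshold. The other 31 members rest on 1 probe each.

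**Figure D5:**
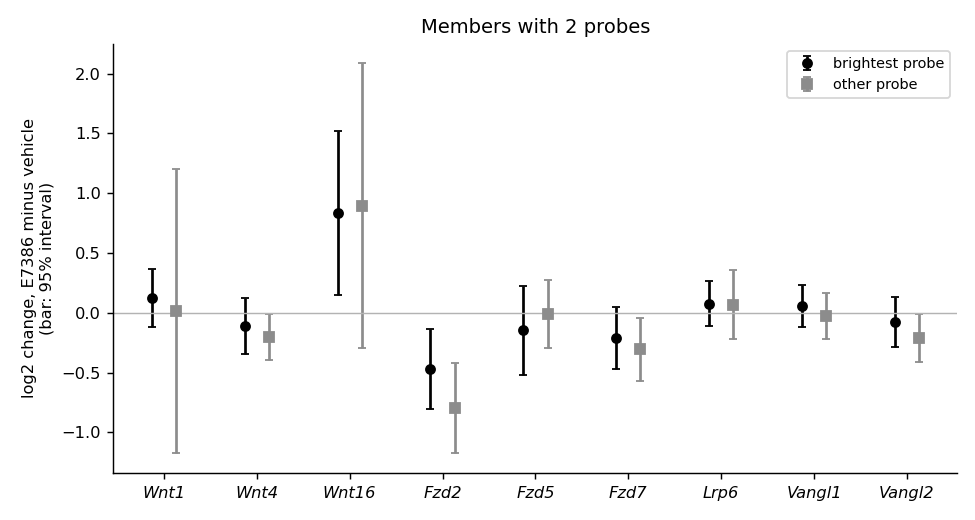
Log2 change, E7386 minus vehicle, of the 9 members with 2 probes, for the brighter (circle) and the other probe (square), with 95% intervals. Fzd2 is lower on both probes, and Wnt16 has similar changes of 0.84 and 0.89 with a wider interval for the second.

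The other genes of the pathway were taken from 4 lists. Of 10 further family members 7 were tested and none passed. The smallest p-values were those of Celsr3, a polarity cadherin of neurons, at 0.42 (SE 0.13, limma adjusted p = 0.175), and Wnt2b, a ligand detected with vehicle on 3 of 4 arrays and with E7386 on 0 of 4 (adjusted p = 0.213). Wnt2b entered the test through its detection with vehicle alone. The measured difference of Wnt2b was -1.08 (SE 0.35), and it was -0.0012 with normexp background correction on median signals. It was 1.23-fold lower where dimmer E7386 values were raised to the dimmest signal well above background on their array. That value was not tested. Of 30 effectors of the non-canonical arm all were tested, 1 rose, 0 fell, and the median change was -0.015. The one that rose is Prkca, a protein kinase C of the calcium branch, with 1.92, 1.86, 1.76 and 1.95 with vehicle and 2.30, 2.28, 2.42 and 2.34 with E7386. The groups did not overlap, and the change was 0.46 (SE 0.074, limma adjusted p = 0.0306). Its second probe gave -0.012 (adjusted p = 0.976), and the call was lost whichever array was left out (adjusted p 0.0557 to 0.118), so it rests on 1 probe and on all 8 arrays. Among other settings, the call was also lost with no filter on dim probes (0.0693) and with array medians as the scale (0.0562).

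Of 30 modulators at the cell surface 27 were tested, 1 rose, 1 fell, and the median change was -0.094. Dkk2, a secreted modulator that binds LRP co-receptors, rose by 0.85 (SE 0.092, limma adjusted p = 0.00751), a call kept whichever single array was left out. That call was lost with the replicate number as a block (adjusted p = 0.0564) and when the 3 low-muscle arrays were dropped (0.0715). Rspo2, which amplifies Wnt signals at Frizzled and LRP, was detected with vehicle on 4 of 4 arrays and with E7386 on 0 of 4. It was 2.25-fold lower where each dim value was raised to the dimmest signal well above background on its array. That value was not tested. Rspo2 entered the test through its detection with vehicle alone. The call came from the measured values, dim ones included, with a change of -2.37 (SE 0.38, limma adjusted p = 0.0306). That call remained without E7386 replicate 1 (adjusted p = 0.0464) or replicate 2 (0.0367) and was lost without any other single array (0.0579 to 0.1). It was also lost with no filter on dim probes (0.0641) and with normexp background correction on median signals (-0.32, adjusted p = 0.114).

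Of 12 genes that transduce or read out the canonical arm 0 rose and 1 fell, with a median change of -0.041. Ccnd1, which encodes cyclin D1, gave 3.71, 3.61, 3.48 and 3.41 with vehicle and 3.01, 2.90, 2.54 and 2.63 with E7386. The groups did not overlap, and it fell by 0.78 on the log2 scale (SE 0.12, limma adjusted p = 0.0303). The call was kept without E7386 replicate 1 and lost without any other single array (adjusted p up to 0.0981). It was also lost with the replicate number as a block (0.0564), with no filter on dim probes (0.0641) and when the 3 low-muscle arrays were dropped (0.0755).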

How the data were processed

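Labelled cRNA from 50 ng of RNA per sample was hybridised to 1-colour arrays, per the labels' protocols. The authors made the deposited scanner files, which hold intensities per spot, with Agilent's Feature Extraction program (11.5.1.1 per the file headers, 11 per the submitters' processing notes). The processed intensity is already background-corrected, per the file headers. The authors' deposited table holds log2 values of the same arrays that share 1 distribution (median 5.31 in every column), and it served as an alternative.

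Probes were named through their RefSeq accessions with a RefSeq table of GRCm38.p6, which gave a symbol to 27509 of 29150 probes with such an accession. The array was designed on mm9, so probes have no coordinates here. Promoter sequences are RefSeq's on GRCm38.p6, and 27 of the 40 genes matched. The log2 processed intensity of each of 59305 mouse spots had the 75th percentile of its array subtracted (459.4 to 656.2 before the log), spots marked non-uniform (2 to 14 per array) were set to missing, and repeated spots were averaged. Genes detected on at least 3 of 4 arrays of a group entered a linear model with moderated errors (limma 3.58.1, R 4.3.3), with Benjamini-Hochberg adjustment over 25353 genes, 16133 of them with a symbol. The script was tested on simulated data.

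All 40 genes are named. Of the other lists, genes past the threshold are named, or the 2 with the smallest p where none passed. The rule for the 40 genes uses no measured value, but they and the other lists were drawn up with earlier results of these data known. Alternatives covered scaling, background correction, dim and non-uniform spots, which probe stands for a gene, weights per array, the variance model, the replicate number as a block, single arrays left out, and covariates of marker genes. Prickle3, Krt85 and Cd68 matched no probe by symbol and were not analysed here.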

Additional observations from a re-analysis of the deposited data

Results flagged for a closer look

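Within groups of 4 arrays, 7 values stood apart from the other 3 by Dixon's criterion, among 73 groups examined, where chance gives about 1 in 20. Vehicle replicate 1 was high for Wnt10a (3.70, others 3.51 to 3.54), for Fzd5 (-1.40, others -1.62 to -1.59) and for Fzd10 (3.03, others 2.58 to 2.65). Vehicle replicate 3 was high for Fzd7 (0.94, others 0.74 to 0.76), and vehicle replicate 4 was low for Vangl1 (3.06, others 3.14 to 3.15). E7386 replicate 1 was low for Wnt16 (-3.48, others -2.53 to -2.37), and E7386 replicate 3 was high for Fzd3 (0.75, others 0.62 to 0.63).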

How the results depend on the processing

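None of the 6 members with an unadjusted p under 0.05 changed direction in the settings tried. The count of 287 genes called over all genes became 155 with no filter on dim probes, 657 at an adjusted p under 0.1, 48 with the replicate block, 47 when the 3 arrays of low muscle signal were dropped and 561 with the muscle mean as a covariate, the last pair chosen after seeing the data. With 1 array left out it ran from 84 (without E7386 replicate 3) to 251 (without E7386 replicate 1), with 149, 116, 117 and 171 without vehicle replicates 1 to 4 and 151 and 104 without E7386 replicates 2 and 4.

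The count of 1 member called became 0 with the authors' processed values, with non-uniform spots kept, with detection required on all 8 arrays, where the marked spot of Daam2 removes it, with the replicate block (-1.10, adjusted p = 0.0821) and when the low-muscle arrays were dropped, and 2 with the muscle mean as a covariate. It stayed at 1 with any single array left out, vehicle replicate 4 holding no Daam2 value. Daam2 was called in 19 of 23 settings. The labels do not say that replicate numbers pair samples, so the main fit did not take them as pairs. The numbers equal the column position on the slide. Deviations of same-numbered arrays correlated at 0.487, -0.165, 0.287 and 0.18, and those of other number pairs at -0.486 to 0.383. These values do not decide whether the numbers pair samples. Normexp on mean signals was not run, since that column was not used here, and median signals took its place. The replicate block also ended the calls of Dkk2 and Ccnd1 (adjusted p = 0.0564 each) and Prkca (0.124), and kept that of Rspo2 (0.0471). Signals at or near background limit Wnt2, Wnt7a, Wnt3a and Ror1.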
